A study of Mus musculus with 12 samples.

Results

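The neuromuscular junction genes described here were 10 genes taken by symbol from the expression tables: the muscle acetylcholine receptor subunits Chrna1, Chrnb1, Chrnd, Chrne and Chrng, the synapse-forming receptor complex Musk, Lrp4 and Dok7, the receptor anchor Rapsn and the collagen tail Colq. All 10 were found, each under 1 identifier, among 15344 genes. Quadriceps RNA was sequenced from 12 mice aged 6 months with a C57BL/6 background, in 3 groups of 4. The group called WT was untreated wild-type mice, the group called KO was GAA knockout male mice injected with PBS, and the group called AAV was GAA knockout male mice given AAV2/8-LSPhGAApA at 2e12 vg/kg. In the study's methods the vector was injected by the tail vein at 2 months of age and muscle was taken 4 months later. The vector carries human GAA under a liver-specific promoter, so that the enzyme reaches muscle from the blood, and the labels give the treatment of the wild-type mice as none. GAA is the lysosomal enzyme that breaks down glycogen, and its loss causes Pompe disease.

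At the neuromuscular junction, motor nerve terminals release acetylcholine onto a patch of muscle membrane packed with receptors. The receptor is a channel built from alpha, beta and delta subunits together with either a gamma subunit, the fetal form (Chrng), or an epsilon subunit, the adult form (Chrne). Agrin from the nerve binds LRP4, which activates the kinase MUSK with its adaptor DOK7, and rapsyn then clusters the receptors. Away from the junction, innervated adult fibres keep the alpha, delta and gamma genes low, and these genes rise along the whole fibre when the nerve supply or muscle activity is lost.

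Counts of the targeted gene did not sort by label, so groups are named by label throughout. Normalized counts of Gaa were 342.9, 14640, 323.8 and 460.3 in the WT-labelled libraries, animals 1 to 4. They were 12151, 13075, 11936 and 12895 in those labelled KO and 946.8, 587.0, 499.6 and 9854 in those labelled AAV. Gaa was therefore high in all 4 libraries labelled KO, low in 3 of the 4 labelled WT and high in 1 labelled AAV. The part of the gene changed in the knockout allele is not given in the sources used here, and every direction below rests on the labels as deposited. The study also measured GAA activity and glycogen in mice of these groups, which were not analysed here. It reports lower activity and more glycogen in KO than WT mice, and higher activity and less glycogen after the vector. Across 15154 genes, the library of WT animal 3 was most like that of AAV animal 3 (Spearman rho = 0.982), and that of AAV animal 4 was most like WT animal 4 (0.982). Libraries held 32299356 to 47379737 reads in the group labelled WT, 31225360 to 40846896 in KO and 22122233 to 31974197 in AAV. Fast-fibre genes, which mark limb muscle such as quadriceps, summed to between 4137930 and 7202496 normalized counts in every library. Labels do not say whether animals shared a litter or extraction, so p-values measure the spread between these libraries only.

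Promoter sequence was on hand for 6 of the 10 genes, Chrna1, Chrnb1, Chrne, Chrng, Musk and Dok7, from RefSeq on GRCm38.p6. The stretch from 150 to 31 bases before the RefSeq start site is shown for the alpha, gamma, epsilon and Musk genes. Alpha and gamma passed the test below as lower in the libraries labelled KO, and epsilon and Musk did not pass it. Capitals mark an E-box (CANNTG, the letters bound by myogenic factors such as myogenin, the same on both strands) or an N-box (CCGGAA or its reverse complement, the letters bound by GABP).
Chrna1: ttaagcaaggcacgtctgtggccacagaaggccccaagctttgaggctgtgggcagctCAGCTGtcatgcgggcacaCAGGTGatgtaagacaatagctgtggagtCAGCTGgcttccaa
Chrng: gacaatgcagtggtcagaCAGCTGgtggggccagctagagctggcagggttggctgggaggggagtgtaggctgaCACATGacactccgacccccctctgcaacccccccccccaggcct
Chrne: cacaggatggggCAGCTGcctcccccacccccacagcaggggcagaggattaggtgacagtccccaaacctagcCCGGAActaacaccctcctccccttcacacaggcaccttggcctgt
Musk: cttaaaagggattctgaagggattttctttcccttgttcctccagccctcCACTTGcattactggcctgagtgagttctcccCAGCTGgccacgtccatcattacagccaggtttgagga
These lie at chr2:73580369-73580488 (- strand), chr1:87205661-87205780 (+), chr11:70619225-70619344 (-) and chr4:58285812-58285931 (+). The stretch of Chrng falls inside the gene as GENCODE M21 draws it, outside its exons, because that annotation starts the gene further upstream. Within 250 bases before the start, Chrna1, Chrng and Musk each held 3 E-boxes, and Chrne held 1 E-box and 1 N-box. Of 32851 RefSeq promoters, 66.2% held an E-box and 12% an N-box in the same 250 bases, so that the letters are a description of these genes and not a mark of them.

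To ask how the receptor genes differed in the muscle of knockout mice, the libraries labelled KO were compared with those labelled WT. Of the 10 genes, 4 were lower in the libraries labelled KO and none was higher. The 4 were the receptor subunits Chrna1, Chrnd and Chrng and the agrin receptor Lrp4 (limma with Benjamini-Hochberg adjustment over 14859 genes, called at an adjusted p under 0.05). Over all genes tested, 15.3% were called lower and 12.3% higher. The median log2 fold change was -0.66 over the 10 genes and 0.02 over all genes. Groups did not overlap, with KO lower, for Chrna1, Chrnd, Lrp4 and Dok7, against 15.1% of all genes.

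Chrna1 (ENSMUSG00000027107, chromosome 2, 73563215 to 73580338, - strand, GRCm38) encodes the alpha subunit, which carries the main acetylcholine binding surface. Its normalized counts were 3116, 3828, 435.0 and 3099 in the WT-labelled libraries and 424.2, 310.4, 370.9 and 346.6 in those labelled KO. WT animal 3 lay just above the highest library labelled KO, while the other WT libraries were far above it. The log2 fold change was -2.47 ± 0.58 (SE, n = 4 per group), with an adjusted p of 0.0138 in limma and an exact two-sided permutation p of 0.0286, the smallest that 4 against 4 allows. Without WT animal 3 it was -3.20 (adjusted p = 2.51e-07).

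Chrnd (ENSMUSG00000026251, chromosome 1, 87190607 to 87200070, + strand) encodes the delta subunit. It had 1561, 1421, 137.2 and 1273 normalized counts in the WT-labelled libraries and 94.7, 61.6, 68.5 and 63.7 in those labelled KO. Every KO library was below every WT library, and the median was 20.4-fold lower. The log2 fold change was -3.46 ± 0.67 (adjusted p = 0.00679, limma), and leaving out each library in turn left it between -4.30 and -3.13, with the test passed in 8 of 8 fits. Chrnd is among the genes that the study itself picked as lowered in knockout muscle from these libraries, so its direction is not independent evidence.

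Chrng (ENSMUSG00000026253, chromosome 1, 87204657 to 87212694, + strand) encodes the fetal gamma subunit and lies next to Chrnd. Its normalized counts were 95.9, 189.2, 4.06 and 231.1 in the WT-labelled libraries and 14.5, 2.57, 3.26 and 0.884 in those labelled KO. The KO values rest on 1 to 15 reads, and WT animal 3, with 5 reads, lay inside the KO range. The log2 fold change of -3.89 ± 1.13 (adjusted p = 0.0305, limma) is on the log2(value + 1) scale, which shrinks changes at so few reads, and it was -4.26 when 0.1 was added instead. Its call was lost (adjusted p up to 0.0886) without any one of WT animals 1, 2 and 4 or KO animals 2, 3 and 4.

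Chrnb1 (ENSMUSG00000041189), the beta subunit gene, had 2184, 2079, 694.8 and 2059 normalized counts in the WT-labelled libraries and 969.1, 955.2, 588.4 and 828.5 in those labelled KO. The 3 high WT libraries were above all KO libraries and WT animal 3 was inside their range, and the test was missed (log2 fold change -0.96 ± 0.35, adjusted p = 0.0648, limma). Chrnb1 did pass, lower in KO, on recovered reads in edgeR (adjusted p = 0.0369) and DESeq2 (0.00688) and in limma with library weights (0.00193). Chrne (ENSMUSG00000014609), the adult epsilon gene, had 523.9, 562.3, 288.1 and 475.9 in the WT-labelled libraries and 315.0, 309.6, 435.1 and 387.3 in those labelled KO. WT animal 3 was again the lowest of its group, below every KO library, and the log2 fold change of -0.32 had a 95% interval of -0.81 to 0.17. Chrne overlaps a gene on the opposite strand, 4930544D05Rik, and whether counting used strand is not stated.

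The receptor genes split by size of change. The point estimates of alpha, delta and gamma were each over 2 on the log2 scale in size, while those of beta and epsilon were under 1. Differences between genes were not tested.

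**Figure D1:**
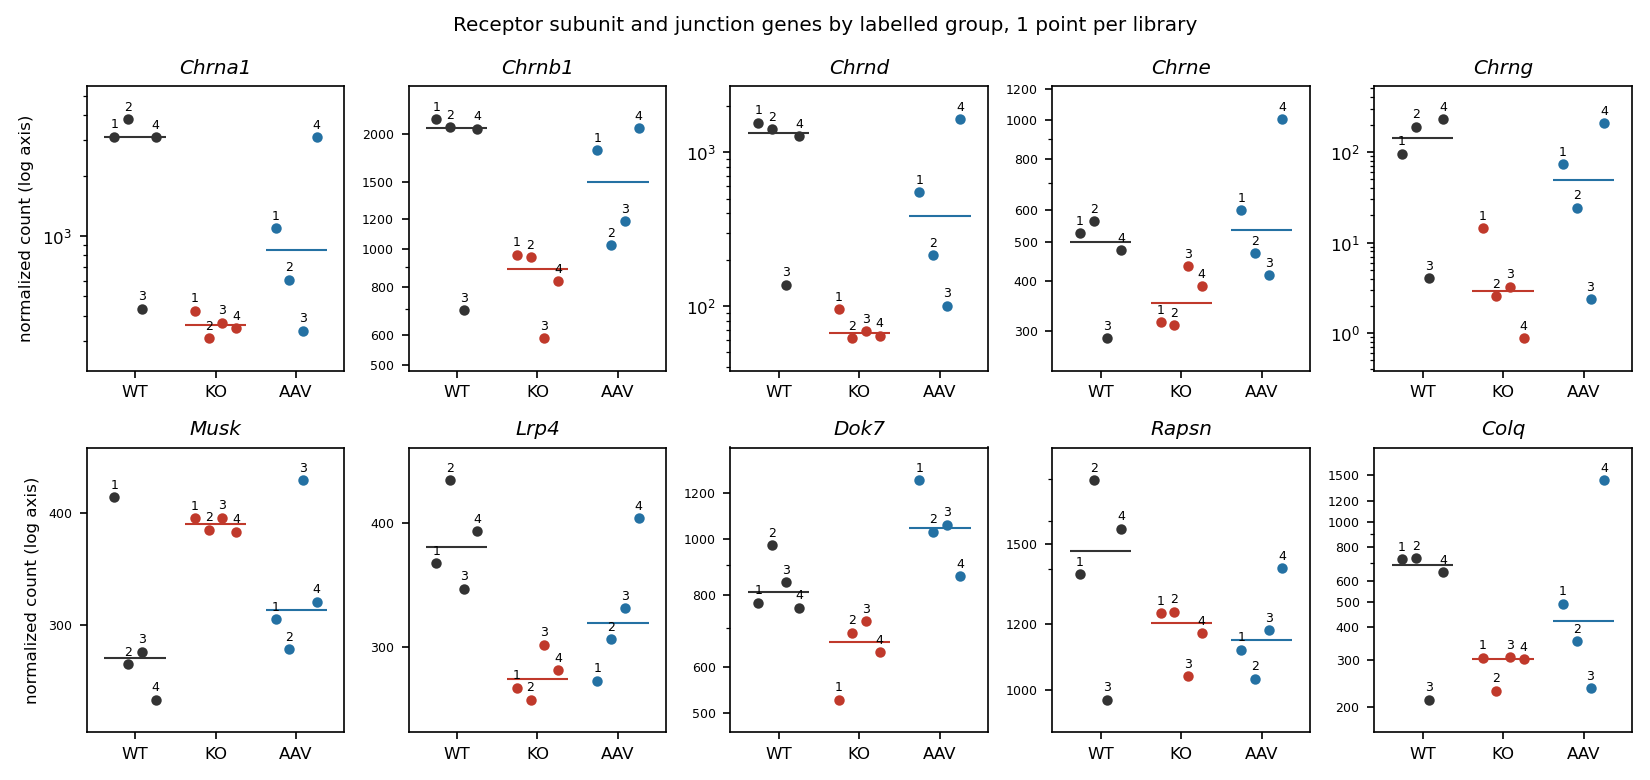
Normalized counts of the 10 genes (log axis), with 1 numbered point per animal and a line at the median of each labelled group. WT animal 3 is the lowest WT library for all of the 5 receptor subunits, and AAV animal 4 is the highest AAV library for the same 5.

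In the synapse-forming complex, estimates were under 1 on the log2 scale in size. Lrp4 (ENSMUSG00000027253, chromosome 2, 91457511 to 91513779, + strand) had 364.7, 442.2, 343.3 and 393.0 normalized counts in the WT-labelled libraries and 272.5, 265.1, 301.3 and 283.8 in those labelled KO. All KO libraries were below all WT libraries, with a log2 fold change of -0.45 ± 0.13 (adjusted p = 0.0302, limma). That call was kept in 1 of 8 fits leaving out a library, the fit without WT animal 3, and it was lost with a correction for GC content (-0.30, adjusted p = 0.0622). Dok7 (ENSMUSG00000044716), the MUSK adaptor gene, had 774.6, 974.8, 841.7 and 759.7 in the WT-labelled libraries and 526.6, 687.5, 719.0 and 636.6 in those labelled KO. The groups did not overlap but the fit across all genes missed the threshold (-0.39 ± 0.14, adjusted p = 0.0665), and with the GC correction the estimate turned to 0.079. Musk (ENSMUSG00000057280) lay between 247.7 and 416.2 in the WT-labelled libraries and between 381.1 and 394.8 in those labelled KO. It was the only one of the 10 with a higher mean in KO, by 0.38 ± 0.17 on the log2 scale, and it did not pass (adjusted p = 0.114, limma). Without WT animal 1 it passed upward (0.54, adjusted p = 0.0257), in a fit that called 8.06% of all genes higher.

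Rapsn (ENSMUSG00000002104), which tethers receptors to the cytoskeleton, ranged from 973.1 to 1793 in the WT-labelled libraries and from 1039 to 1243 in those labelled KO, with a 95% interval of the log2 fold change from -0.66 to 0.15. It overlaps Gm13778 on the opposite strand. Colq (ENSMUSG00000057606), the collagen that anchors acetylcholinesterase in the synaptic cleft, overlaps Gm49387 and Gm24057 on its own strand, so that reads there could be split or dropped. It had 724.8, 727.1, 213.5 and 645.6 in the WT-labelled libraries and 307.3, 230.9, 308.9 and 302.4 in those labelled KO. WT animal 3 was below all KO libraries and the other WT libraries were above them, and the log2 fold change of -0.86 ± 0.36 did not pass (adjusted p = 0.0956, limma). Without WT animal 3, 8 of the 10 genes were lower and passed, with Chrnb1, Chrne, Rapsn and Colq added, while the share of all genes called lower rose to 24.2%. Without WT animal 2, whose Gaa count stood apart from its group, Chrna1 and Chrnd passed, and 10.2% of all genes were called lower.

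Levels between genes were compared per kilobase of annotated exon. In the libraries labelled WT, median normalized counts per kilobase were 818.0 for Rapsn, 817.5 for Chrnb1 and 708.6 for Chrna1. Then came Chrnd at 409.7, Chrne at 295.8, Dok7 at 189.0, Colq at 180.2, Musk at 73, Lrp4 at 36.1 and Chrng at 34.2. Ranges of neighbours in that order overlapped except between Musk and Lrp4. The overlaps of Chrna1 with Chrnd, Chrnd with Chrne, Chrne with Dok7 and Colq with Musk came only through WT animal 3. In the libraries labelled KO the order differed, with Rapsn at 668.5, Chrnb1 at 352.4, Chrne at 207.8, Dok7 at 154.9, Musk at 102.9, Chrna1 at 81.8, Colq at 80.2, Lrp4 at 26.5, Chrnd at 20.1 and Chrng at 0.70 per kilobase. There, the KO ranges of Chrnb1 and Chrne, of Chrna1 and Colq and of Lrp4 and Chrnd overlapped, and the other neighbours were apart.

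The choice between fetal and adult subunit was followed as the share of Chrng among Chrng and Chrne reads. Annotated exons span 4163 bases in Chrng and 1690 in Chrne, and no correction for length was made. The share is therefore one of reads, and it is higher than a share of transcripts would be. It was 15.5%, 25.2%, 1.39% and 32.7% in the libraries labelled WT, animals 1 to 4. In those labelled KO it was 4.4%, 0.822%, 0.744% and 0.228%. In those labelled AAV it was 10.9%, 4.91%, 0.57% and 17.1%. WT animals 1, 2 and 4 and AAV animals 1 and 4 held the highest shares, and all other libraries were under 5%. Intervals in the plot of this share are 95% Wilson intervals and cover counting error only, and for KO animal 4, with 1 Chrng read of 439, the interval ran from 0.0402% to 1.28%. The log2 ratio of Chrng to Chrne, with 1 added to both, averaged -2.72 ± 2.16 (SD, n = 4) in the libraries labelled WT, -6.29 ± 1.40 in KO and -4.11 ± 2.05 in AAV. By exact two-sided permutation tests the difference was -3.57 for KO against WT (p = 0.0571, adjusted over 3 comparisons 0.171), 2.18 for AAV against KO (p = 0.171, adjusted 0.257) and -1.39 for AAV against WT (p = 0.4, adjusted 0.4). None passed.

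**Figure D2:**
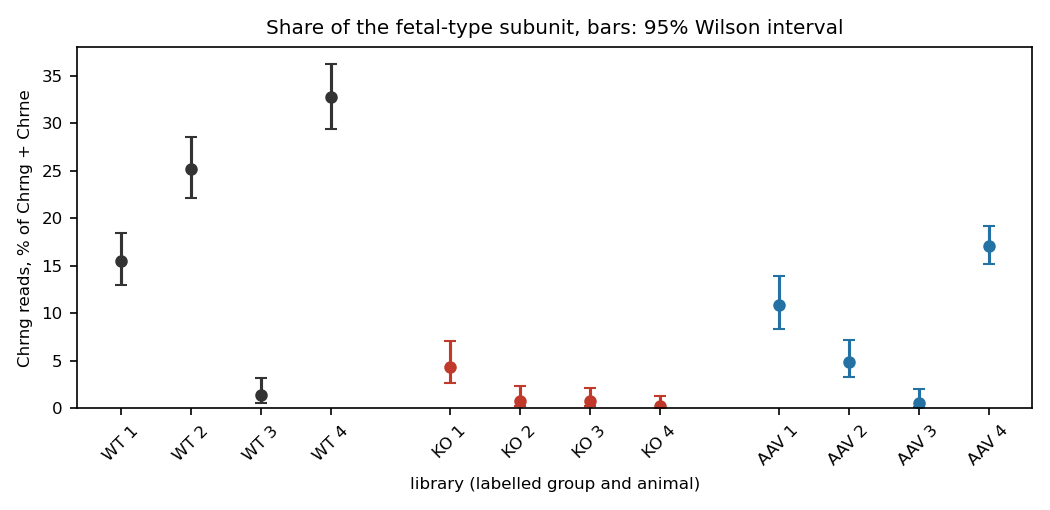
Share of Chrng reads among Chrng and Chrne reads in each library, in percent, with 95% Wilson intervals. Shares run from 0.228% in KO animal 4 to 32.7% in WT animal 4, and WT animal 3 lies at 1.39%.

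To ask what followed vector treatment, the libraries labelled AAV were compared with the same libraries labelled KO, so that both comparisons share their KO samples. Chrnb1, Chrnd and Dok7 were higher in the libraries labelled AAV, 3 of the 10, and none was lower (limma, adjusted p under 0.05). Over 14894 genes, 12.8% were called higher and 13.4% lower, and the median log2 fold change was 0.75 over the 10 genes against 0.04 over all. The libraries of these 3 genes did not overlap between groups, against 14.8% of all genes with AAV higher. With counts scaled by total reads instead, the median of all genes moved from 0.04 to 0.21 and the calls from 1911 higher and 1999 lower to 2397 and 1270, and the same 3 members passed.

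Chrnd had 551.3, 213.4, 100.4 and 1655 normalized counts in the libraries labelled AAV. All were above the KO libraries, from AAV animal 3 just above them to AAV animal 4 above every WT library, and the log2 fold change was 2.38 ± 0.69 (adjusted p = 0.0318, limma). It was 1.67 without AAV animal 4 (adjusted p = 0.034), and the call was lost without AAV animal 1 or any one KO animal (adjusted p up to 0.0887). Chrnb1 had 1810, 1025, 1185 and 2066 in the libraries labelled AAV, all above KO, with a log2 fold change of 0.83 ± 0.24 (adjusted p = 0.032, limma). Its call was lost without AAV animal 1, AAV animal 4 or any KO animal and with the GC correction (0.72, adjusted p = 0.0534), library weights (0.55, 0.0838) or all 12 libraries in one fit (adjusted p = 0.105). The Chrnd call was also lost in that one fit (adjusted p = 0.0633). Dok7 had 1262, 1028, 1058 and 860.8, again all above KO, and rose by 0.71 ± 0.15 on the log2 scale (adjusted p = 0.0101, limma). Its test was passed in 8 of 8 fits leaving out a library and missed with the GC correction (0.31, adjusted p = 0.111).

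For the other subunits AAV animal 3 stayed among the KO values. Chrna1 had 1096, 606.1, 337.8 and 3099 in the libraries labelled AAV, with 3 libraries above all KO libraries and a log2 fold change of 1.34 ± 0.54 (adjusted p = 0.0909, limma). Chrng had 73, 24.2, 2.36 and 208.3, with animals 1, 2 and 4 above all KO libraries, and 2.88 ± 1.13 (adjusted p = 0.0845). Chrne had 599.5, 468.2, 412.2 and 1009, with animal 3 inside the KO range, and 0.71 ± 0.26 (adjusted p = 0.0664). Without AAV animal 3, 7 of the 10 genes passed, namely Chrna1, Chrnb1, Chrnd, Chrne, Chrng and Dok7 upward and Musk downward, and over all genes in that fit 17% were called higher and 17.1% lower. Without AAV animal 4, Chrnd and Dok7 passed, with 10.8% of all genes called higher.

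Among the remaining genes, Colq had 490.6, 355.4, 235.0 and 1433 in the libraries labelled AAV, a spread that took in KO values at animal 3 (adjusted p = 0.209, limma). Lrp4 ranged from 277.0 to 404.7 and Musk from 281.9 to 434.6, both overlapping KO. Rapsn ranged from 1031 to 1403 around the KO values, and its 95% interval ran from -0.26 to 0.28.

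Between the libraries labelled AAV and those labelled WT, no gene of the 10 passed the test in limma, edgeR or DESeq2. At an unadjusted p under 0.05 the limma count was also 0, and over 14939 genes limma called 1.29% in either direction. The groups overlapped for all 10. Intervals were wide for the alpha gene (log2 fold change -1.13, 95% interval -2.90 to 0.63), delta (-1.07, -3.20 to 1.05) and gamma (-1.01, -4.19 to 2.17), and narrower for Lrp4 (-0.24, -0.61 to 0.13) and Dok7 (0.32, -0.03 to 0.67). Without both WT animal 3 and AAV animal 4, a choice made after seeing these values, Chrna1 (-2.45, adjusted p = 0.00354), Chrnd (-2.63, 0.00884), Chrng (-3.14, 0.0454) and Colq (-1.02, 0.0272) were lower in the libraries labelled AAV (limma). For each of these genes WT animal 3 was the lowest WT library and AAV animal 4 the highest AAV library. The choice itself therefore lowers the estimates, and in that fit 6.85% of all genes were called lower. Without both WT animal 2 and AAV animal 4, the libraries set apart by Gaa, 0 of the 10 passed, in a fit that called 0.068% of all genes and so says little of these 10.

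**Figure D3:**
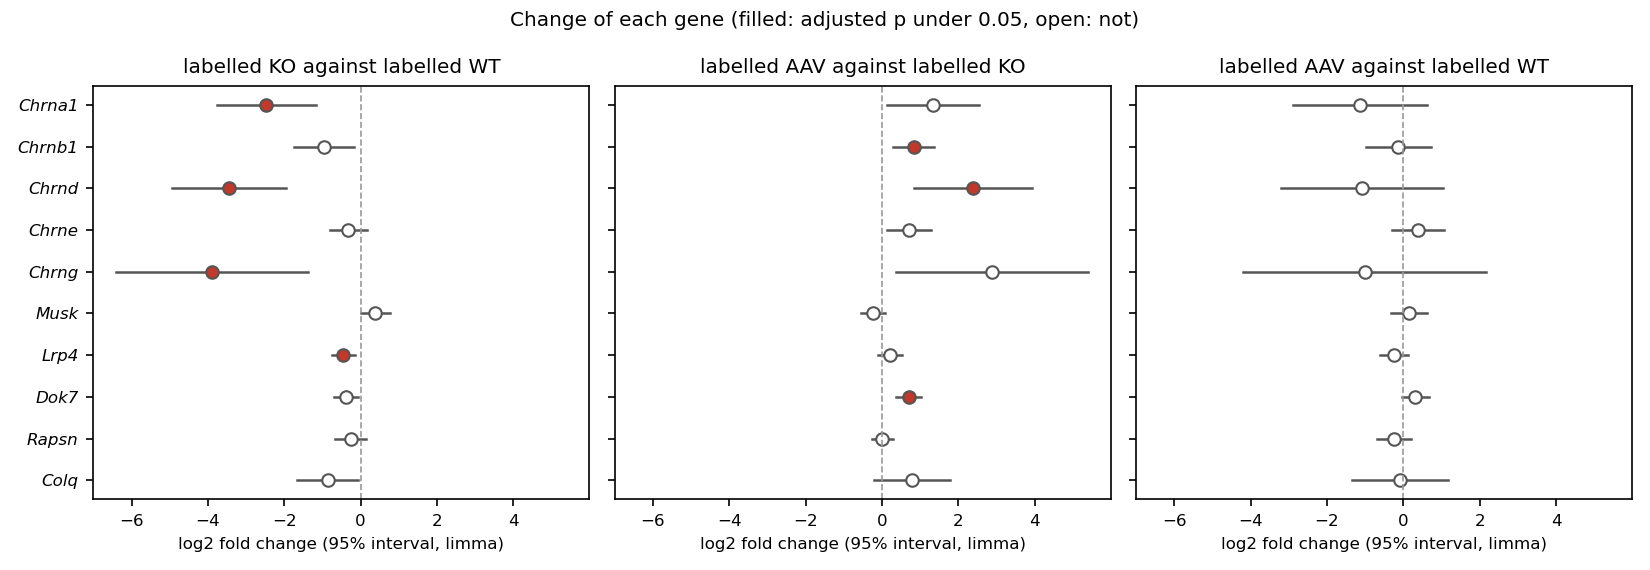
Log2 fold change of each gene with its 95% interval in limma for the 3 comparisons of labelled groups, filled where the adjusted p was under 0.05. The filled points are 4 genes below 0 for KO against WT, 3 above 0 for AAV against KO and none for AAV against WT.

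Several genes known to rise when muscle loses its nerve were high in the same libraries as the receptor subunits. Of 11 genes on this list, 6 were lower in the libraries labelled KO than WT and none was higher (limma). Among all genes, 15.3% were called lower and 12.3% higher. The median log2 fold change was -1.82 over the list against 0.02 over all genes. The 6 included Gadd45a, a stress response gene, at -2.76, the transcription factor Runx1 at -2.76 and the embryonic myosin Myh3 at -3.03. The others were the perinatal myosin Myh8 at -2.17, the adhesion molecule Ncam1 at -2.06 and myogenin (Myog) at -1.82. Runx1 had 674.1, 645.3, 199.7 and 733.4 normalized counts in the WT-labelled libraries, 85, 66.7, 85.9 and 60.1 in KO and 501.7, 188.3, 114.6 and 551.5 in AAV. Myh3 had 1051, 1040, 166.4 and 1088 in WT, 115.9, 77, 65.3 and 72.5 in KO and 600.9, 350.4, 89.8 and 983.8 in AAV. Both were highest in WT animals 1, 2 and 4 and AAV animals 1 and 4, the libraries with the highest Chrnd and Chrng. The ubiquitin ligases Trim63 and Fbxo32 did not pass in this comparison (log2 fold changes -0.53 and 0.56). In the libraries labelled AAV against KO, Gadd45a, Runx1, Myh3 and Myh8 were higher and Fbxo32 lower. In that comparison 12.8% of all genes were called higher and 13.4% lower. Gadd45a, Runx1, Myh3 and Myh8 are also among the genes that the study picked from these libraries.

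**Figure D4:**
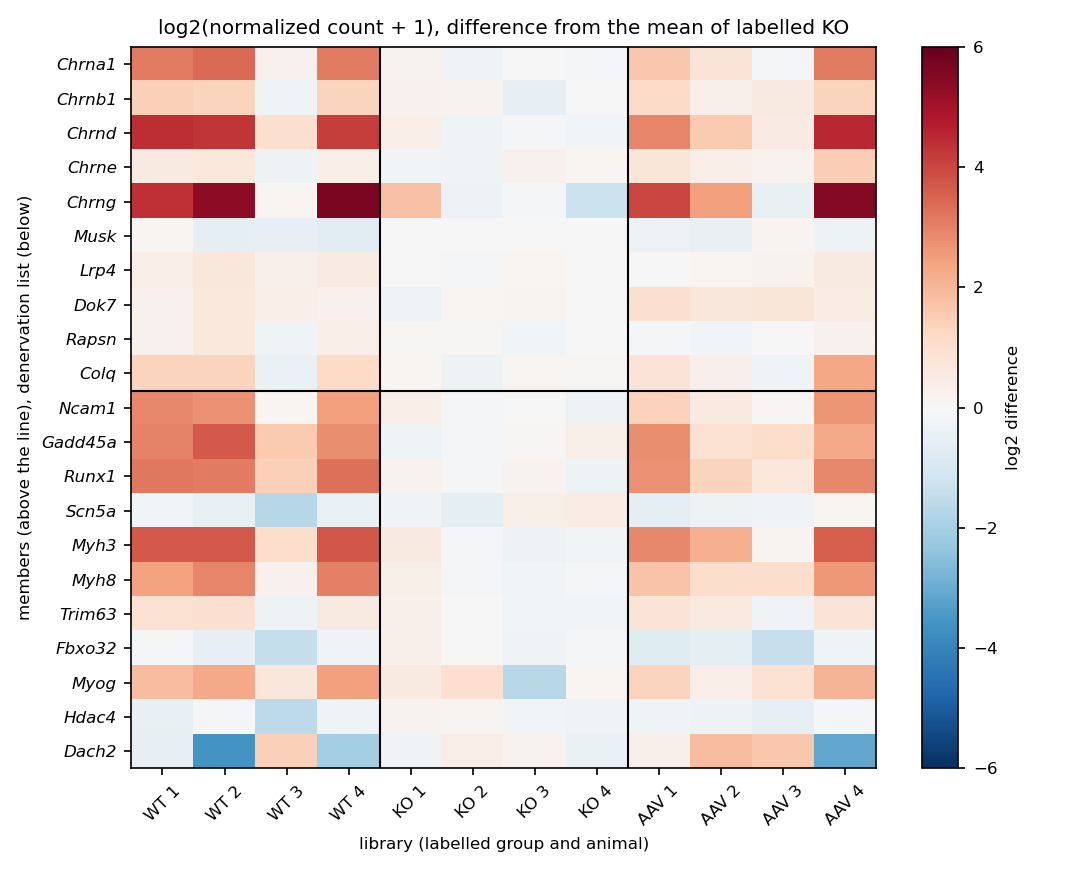
Difference of log2(normalized count + 1) from the mean of the libraries labelled KO, for the 10 members (above the line) and the 11 genes of the denervation list (below it), in each library. Chrna1, Chrnd, Chrng, Ncam1, Gadd45a, Runx1, Myh3 and Myh8 are raised in WT animals 1, 2 and 4 and AAV animals 1 and 4, and less or not in WT animal 3 and AAV animal 3.

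Transcription factors and regulators of junction genes formed another list. Of 11 such genes, 3 were lower in the libraries labelled KO and none higher, against 15.3% of all genes called lower. They were the ETS factor Etv4 (log2 fold change -1.18, adjusted p = 0.00396, limma), Myod1 (-0.58, 0.0248) and Myog (-1.82, 0.0378). Myog had 481.4, 650.6, 211.0 and 741.2 normalized counts in the WT-labelled libraries and 194.2, 266.0, 41.3 and 145.0 in KO, so that WT animal 3 was inside the KO range. Gabpa, the GABP subunit that binds the N-box, was at 0.57 and did not pass. In AAV against KO, Etv4 was higher (0.95, adjusted p = 0.0249, limma) and Gabpa lower (-0.74, 0.00764).

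Of 17 agrin and neuregulin signalling genes, 4 were higher and 2 lower in the libraries labelled KO, where 12.3% of all genes were called higher and 15.3% lower, so that the count is read as no result about the list. Agrn itself, the gene for agrin, was higher (1.09 ± 0.13, adjusted p = 0.00101, limma), at 206.3, 248.8, 191.5 and 207.7 normalized counts in WT, 431.9, 419.9, 480.8 and 481.0 in KO and 753.9, 775.2, 622.4 and 582.7 in AAV. The 3 groups did not overlap, and Agrn was higher again in AAV against KO (0.58 ± 0.13, adjusted p = 0.0124). Wnt4 (1.38) and the kinase gene Abl1 (0.61) were also higher in KO, and the neuregulin receptor gene Erbb2 was lower (-1.78, adjusted p = 0.00897) and higher in AAV against KO (1.72, 0.00642). In AAV against KO, Agrn and Erbb2 were the 2 higher calls of the list and 6 were lower, among them Pdzrn3 (-0.79), Crkl (-0.73) and Ptpn11 (-0.67), with a list median of -0.25 against 0.04 over all genes, of which 12.8% were called higher and 13.4% lower.

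Of 13 synaptic cleft genes, 3 were higher and 3 lower in the libraries labelled KO, against the same 12.3% and 15.3% of all genes. The basement membrane collagens Col4a3 (1.70, adjusted p = 0.000995, limma) and Col4a4 (1.25, 0.00552) were higher, and the synaptic laminin gene Lamb2 (-0.73, 0.0207) and acetylcholinesterase (Ache, -1.25, 0.0236) were lower. Ache had 2676, 3051, 935.0 and 2347 normalized counts in WT, 702.4, 715.8, 1056 and 1050 in KO and 2211, 1167, 837.3 and 3581 in AAV, with WT animal 3 and AAV animal 3 among the KO values. In AAV against KO, 1 of the 13 passed, where 12.8% of all genes were called higher. That gene was the collagen Col13a1, higher in AAV than KO (1.61, adjusted p = 0.00449, limma) and lower in KO than WT (-0.97, 0.0347). Of 12 scaffold genes, Nes (-1.81) and Cav3 (-0.87) were lower and the muscle sodium channel gene Scn4a (0.86) higher in KO, shares near those over all genes. Of 5 glycosylation enzymes whose loss causes congenital myasthenia, Gfpt1 was higher (0.97, adjusted p = 0.0261). Of the other nicotinic subunits, 5 of 11 were in the tables, and Chrna7 and Chrnb2 were lower in KO at few reads. Chrnb2 had 25.3, 38.3, 6.49 and 21.5 normalized counts in WT and 1.93 to 5.99 in KO, and Chrna7 did not exceed 10.6 in any library. Nes is among the genes that the study picked.

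Some markers of fibre types and of other cells also differed between groups, and in bulk tissue fewer cells of a type and less RNA per cell cannot be told apart. Over all genes tested, 15.3% were called lower and 12.3% higher in KO than WT, and 12.8% were called higher in AAV than KO. All 7 slow-fibre genes were lower in the libraries labelled KO than WT (limma), and 6 of 7 were higher in AAV than KO. Their summed level was 3396 to 6630 in WT, 1112 to 1297 in KO and 2934 to 24410 in AAV. Of 8 fast-fibre genes, the myosins Myh1 (-1.36) and Myh2 (-1.89) were lower and Myh4 (0.73) higher in KO than WT, and Myh1 (1.09) and Myh2 (2.31) were higher in AAV than KO. The 3 macrophage genes in the tables summed to 362.8 to 1097 in WT, 227.2 to 478.6 in KO and 250.4 to 979.2 in AAV. Cd68, the lysosomal one of these, was lower in KO than WT (-3.35, adjusted p = 0.00513, limma), and Csf1r (0.241) and Mrc1 (0.384) did not pass. Cd68 had 560.1, 590.0, 69.8 and 567.6 in WT, 28.2 to 36.7 in KO and 126.8, 74.5, 35.4 and 414.8 in AAV, with the highest values in WT animals 1, 2 and 4 and AAV animal 4 as for Chrnd. The part of these in the changes of the junction genes was not tested.

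Of 9 Schwann cell genes, 1 (Cdh19) was higher in the libraries labelled KO, where 12.3% of all genes were called higher. Sums over the 9 were 1332 to 3019 in WT, 2020 to 3172 in KO and 1708 to 4671 in AAV. Endothelial genes passed upward in KO for 2 of 3, against the same 12.3% (sums 1331 to 3919, 3142 to 4095 and 2556 to 4478). The 4 satellite cell, 3 adipocyte and 3 fibroblast genes did not pass in KO against WT, and Pax7, which marks satellite cells, was higher in AAV than KO (0.68, adjusted p = 0.0303, limma). Axon and motor terminal markers were sparse, with 3 of 8 in the tables and summed levels of at most 36.8 normalized counts in any library. Chat and Slc18a3, which define cholinergic terminals, were not among the genes in the tables.

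By likeness of pattern over the 12 libraries, which is a description of values that fall into a high and a low set, the genes nearest Chrna1 were Tmbim1, Ncam1 and Cd68 (Pearson r = 0.993, 0.992 and 0.991 on log2 values). Nearest Chrnd were Ckap4, Nes and S100a10 (0.995, 0.994 and 0.994), and nearest Chrng were Tmem8c, the myoblast fusion gene, Ctgf and Metrnl (0.977, 0.976 and 0.971). Nearest Lrp4 were Rps18, Cdk2ap1 and Dhps (0.976, 0.971 and 0.970). All points share libraries and depth with the member compared.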

How the data were processed

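The authors used Trim Galore 0.4.1 for trimming, STAR for mapping and HTSeq 0.6.1 for counting reads with a single location, per the labels and methods. Genes under 10 reads in every library were dropped, and size factors came from DESeq2 1.16.1. These normalized counts are the deposited signal values. The deposited log2 fold changes and standard errors, the Wald statistic (a score) and the p-values of the authors' own comparisons were not used. Each library's values were whole multiples of 1 read (100% within 0.01), which gave the recovered reads for edgeR 4.0.16 and DESeq2 1.42.0 as alternatives. No per-sample column was left out. Both tables were joined by gene, since their KO values were equal.

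limma 3.58.1 with a trend (R 4.3.3) was run on log2(value + 1) over genes that reached a value of 10 in 1 or more of the 8 libraries. Single members and the Chrng to Chrne ratio also had exact two-sided permutation tests (scipy 1.17.1). Fits were checked on simulated data. Annotation was GENCODE M21 (GRCm38) and promoters were RefSeq.

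Named genes were the 10 members, Gaa, up to 4 called genes per pathway list (all 6 of the denervation list, and a few others, were named after their values were seen) and the 3 genes most like each called member. The members and lists were chosen with earlier results of these data known.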

Additional observations from a re-analysis of the deposited data

Results flagged for a closer look

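Values of the members, Gaa and the log2 ratio of Chrng to Chrne were examined for a library far from the other 3 of its group, in 36 groups of 4, of which chance sets apart about 1 in 20. There were 5 such values. In the libraries labelled WT, animal 3 had a Chrnb1 normalized count of 694.8 against 2059 to 2184 in the others and a Colq count of 213.5 against 645.6 to 727.1. In the libraries labelled KO, animal 2 had a Colq count of 230.9 against 302.4 to 308.9. Gaa stood apart in WT animal 2 at 14640, against 323.8 to 460.3, and in AAV animal 4 at 9854, against 499.6 to 946.8.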

How the results depend on the processing

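Chrna1 and Chrnd passed in KO against WT, lower in KO, under each of the 20 alternatives. For members called in that comparison (4), edgeR on recovered reads gave 6 (Chrnb1 and Colq added), DESeq2 on recovered reads and library weights each gave 7, and leaving out 1 replicate gave 2 to 8. All genes called (4097) came to 6615 with library weights and to 2353 (without WT replicate 4) to 7163 (without WT replicate 3) leaving out 1 replicate. For members called in AAV against KO (3), edgeR gave 5 (Chrna1 and Chrng added), DESeq2 gave 7, and all 12 libraries in one fit, the GC correction, and the replicate block with GC correction each gave 1, while leaving out 1 replicate gave 1 to 7. All genes called there (3910) were 1961 to 5071 leaving out 1 replicate. For AAV against WT, members called (0) stayed at 0 leaving out 1 replicate and rose to 4 without both WT replicate 3 and AAV replicate 4, added after seeing the data. All genes called (193) were 951 with DESeq2, 318 with scaling by total reads (283 higher and 35 lower, against 142 and 51, with the median of all genes at 0.12 in place of -0.03), 127 with no filter on low values, 901 with all 12 libraries in one fit, 1421 with library weights, 10 without both WT replicate 2 and AAV replicate 4, 2037 without both WT replicate 3 and AAV replicate 4, and 18 to 442 leaving out 1 replicate.

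Signs turned for some estimates that had not passed the test. In KO against WT the GC correction gave 0.079 for Dok7 and 0.087 for Rapsn, with or without the replicate block. In AAV against KO, Rapsn was at -0.0071 with edgeR, -0.099 with library weights, -0.35 with the GC correction and with the replicate block with GC correction, and -0.078 to 0.07 leaving out 1 replicate. In AAV against WT, Chrnb1 was at 0.023 with scaling by total reads, Musk at -0.012 with library weights, and Colq at 0.16 with edgeR, 0.13 with DESeq2 and 0.075 with scaling by total reads. Leaving out 1 replicate or a pair of them there, the ranges were -0.70 to 0.041 for Chrnb1, -0.092 to 0.55 for Chrne, -3.14 to 0.099 for Chrng and -1.02 to 0.28 for Colq. The cause was not tested for any of these.

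The labels give no reason for the shared replicate numbers, and they were not taken as pairs, as not every correlation of same-numbered deviations was over 0.1. These ran from -0.115 to 0.0253 (KO, WT), -0.176 to 0.0618 (AAV, KO) and -0.355 to 0.554 (AAV, WT). With the replicate block, members called were 4, 3 and 0, with Lrp4 lost (adjusted p = 0.0837) and Chrnb1 gained (0.0192) in KO against WT (limma), and all genes called were 3062, 2179 and 132 in the 3 comparisons, and with the GC correction as well, all genes called were 1903 for AAV against KO and 467 for AAV against WT. The ratio of Chrng to Chrne kept its sign in all 30 alternatives. The exact p-values of the fits leaving out 1 replicate (0.0571 at the smallest) and of the replicate block (0.125 at the smallest) could not fall under 0.05 in designs of that size and say nothing of stability, and with 0.1 added in place of 1 the p-values were 0.0571, 0.171 and 0.429. Few reads limit Chrng, Chrna7 and Chrnb2.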
